A study of Mus musculus with 12 samples.

Results

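The proteasome subunit genes described here are the 41 genes of the deposited tables, of 12528 in all, whose symbol is *Psma*, *Psmb*, *Psmc*, *Psmd*, *Psme*, *Psmf* or *Psmg* followed by a number. The interferon-inducible subunits *Psmb8*, *Psmb9* and *Psmb10* were set apart by that rule and are treated as companions. Whole-transcriptome RNAseq was performed on cells sorted from hearts of C57BL/6 *Bmi1*-YFP mice (*Bmi1* CreER/+;*Rosa26* YFP/+), in which tamoxifen (TM) activates a Cre recombinase under *Bmi1* control and so switches on YFP from the *Rosa26* locus. All mice, controls included, carried both alleles and received 3 TM injections 24 h apart, scaled to 9 mg for a body weight of 40 g. The 4 homeostatic *Bmi1*-CPC libraries (YFP+ cells) and the 4 *Sca-1*-YFP- libraries (SCA-1+, YFP-negative, CD45-depleted cells) were each pooled from 6 mice and harvested 5 days after TM. The 4 AMI libraries were *Bmi1*-CPC pooled from 2 to 3 mice, infarcted by coronary ligation 5 days after TM and harvested 5 days later. The sources give mice of 8 weeks in one place and of 6 to 8 weeks in another, and they describe CD45 depletion for the *Sca-1* sort alone. Sample titles read SCApYFPp for both *Bmi1*-CPC groups and SCApYFPn for the reference, whereas the paper describes the *Bmi1*-CPC sort by YFP alone. Whether YFP+ cells were also selected for SCA-1 is therefore not clear. No sham-operated library entered the AMI comparison, so that surgery, the longer interval after TM and the smaller pools cannot be told apart from infarction.

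The 26S proteasome degrades proteins tagged with ubiquitin. Its 20S core is a barrel of outer alpha rings, which form the gate, and inner beta rings, which hold the proteolytic sites. A 19S cap placed on the barrel recognises ubiquitin through its base and lid, unfolds the substrate with a ring of ATPases and removes the ubiquitin chain, and alternative activators can take the place of the cap. Because the complex needs its subunits in fixed proportions, its genes are known for coordinated transcription, under factors such as NRF1 (*Nfe2l1*) and NF-Y. By position the 41 genes comprised 7 of the alpha ring, 7 of the beta ring, 6 base ATPases, 3 base non-ATPases, 8 lid subunits, 3 base chaperones, 2 chaperones of the 20S core, 4 activators and 1 inhibitor.

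Promoters of 5 genes are printed because these genes carried the main changes described below or, for *Psmb5*, the main catalytic site. They come from RefSeq on GRCm38.p6, where 34 of the 41 genes matched, and each window runs from 250 bases before to 50 bases after the start of the gene. Capitals mark motif matches, each searched on both strands. In *Psma1*, *Psma3* and *Psmd14* they mark the CCAAT box, the motif that NF-Y recognises. In *Psme1* they mark the core of the interferon-stimulated response element (ISRE, here GAAA followed after any 2 bases by a further GAAA), on the other strand. In *Psmb5* they mark the core of the antioxidant response element (ARE, TGACNNNGC). The *Psme1* site and some sites of *Psma3* and *Psmd14* lie within the 50 bases after the start, and binding was not measured. The windows are chr7:114276067-114276366 on the minus strand, chr12:70974373-70974672 on the plus strand, chr2:61711444-61711743 on the plus strand, chr14:55578244-55578543 on the plus strand and chr14:54617946-54618245 on the minus strand.
Psma1: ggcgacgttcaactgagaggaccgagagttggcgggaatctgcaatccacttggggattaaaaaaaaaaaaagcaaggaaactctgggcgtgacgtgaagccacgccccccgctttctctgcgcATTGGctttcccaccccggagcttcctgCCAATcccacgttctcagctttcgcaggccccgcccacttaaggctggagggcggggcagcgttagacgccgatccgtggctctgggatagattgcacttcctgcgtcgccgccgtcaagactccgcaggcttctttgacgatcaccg
Psma3: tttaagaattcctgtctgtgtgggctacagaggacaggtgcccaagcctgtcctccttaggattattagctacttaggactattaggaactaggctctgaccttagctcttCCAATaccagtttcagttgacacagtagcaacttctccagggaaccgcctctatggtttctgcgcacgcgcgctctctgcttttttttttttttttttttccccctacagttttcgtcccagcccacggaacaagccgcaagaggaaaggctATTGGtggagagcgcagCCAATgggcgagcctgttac
Psmd14: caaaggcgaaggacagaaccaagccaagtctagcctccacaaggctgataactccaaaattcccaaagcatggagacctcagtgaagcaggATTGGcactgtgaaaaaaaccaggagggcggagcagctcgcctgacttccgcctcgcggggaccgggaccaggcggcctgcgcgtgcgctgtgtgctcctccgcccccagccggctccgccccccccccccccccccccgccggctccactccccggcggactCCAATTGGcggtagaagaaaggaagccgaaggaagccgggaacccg
Psme1: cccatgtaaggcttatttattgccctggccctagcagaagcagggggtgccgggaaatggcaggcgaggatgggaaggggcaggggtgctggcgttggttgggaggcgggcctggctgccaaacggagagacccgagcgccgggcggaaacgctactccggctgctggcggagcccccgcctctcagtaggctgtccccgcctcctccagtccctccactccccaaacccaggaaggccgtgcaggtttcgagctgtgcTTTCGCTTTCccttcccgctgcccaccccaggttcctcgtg
Psmb5: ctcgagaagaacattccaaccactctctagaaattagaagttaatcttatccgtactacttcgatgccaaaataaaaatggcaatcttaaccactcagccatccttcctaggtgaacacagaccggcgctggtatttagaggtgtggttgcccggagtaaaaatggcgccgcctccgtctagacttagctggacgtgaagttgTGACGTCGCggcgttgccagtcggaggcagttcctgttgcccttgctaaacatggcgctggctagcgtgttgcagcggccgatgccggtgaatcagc

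CCAAT was found in 12 of the 34 matched promoters and in 37.4% of all 32851 promoters in the table. The ISRE core was found in 4 (*Psmb3*, *Psmd4*, *Psmd9* and *Psme1*) against 3.44% of all promoters. The ARE core was found in 6 against 12.4%. The site TTCNNNGAA, known as a gamma-activated sequence, was found in 2 against 8.30%. Of the 3 promoters of *Psmb8*, *Psmb9* and *Psmb10*, 0 held the ISRE core and 0 the ARE core. TTCNNNGAA was found in 1 of them (*Psmb8*) and CCAAT in 1 (*Psmb9*). A member was counted if any of its windows held the motif, and 3 members had several starts, whereas the shares of all promoters count each window. These matches only describe the letters present. CCAAT lay in 3 of the 8 matched promoters of genes that rose after AMI and in 0 of the 4 matched promoters of genes that fell.

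The libraries held 4063619 to 4993906 reads in homeostatic *Bmi1*-CPC, 3397621 to 8031666 in the *Sca-1*-YFP- group and 6784686 to 8078721 after AMI. In 1 library 3 reads corresponded to a normalized value of 0.369 to 1.04, and the least abundant member, *Psmg2*, had a mean of 4.08 in *Bmi1*-CPC. *Bmi1* itself was 48.7 ± 7.61 (SD, n = 4) in *Bmi1*-CPC against 28.1 ± 4.84 in the *Sca-1*-YFP- group. *Ly6a*, the gene of SCA-1, was 809 ± 19.7 in *Bmi1*-CPC against 642 ± 116 in the *Sca-1*-YFP- group, without overlap (limma adjusted p = 0.0673). After AMI it was 577 ± 128, lower than in homeostatic *Bmi1*-CPC (limma adjusted p = 0.0111). Defining markers of other cells differed between the groups. The summed value of 5 leukocyte markers was 91.7 to 128 in homeostatic *Bmi1*-CPC, 11.5 to 20.4 in *Sca-1*-YFP- cells and 301 to 521 after AMI, with all 5 higher in *Bmi1*-CPC than in the reference and higher again after AMI. The reference sort discarded CD45+ cells, and *Ptprc*, the gene of CD45, is among the 5. Low leukocyte markers in the reference therefore cannot be told apart from that sort. Of the 8 endothelial markers, 8 were higher in *Bmi1*-CPC in homeostasis and 6 fell after AMI, and their sum was 4633 to 6437, 1185 to 2558 and 3066 to 4557 in the same order. Of the 8 fibroblast markers, 8 were lower in *Bmi1*-CPC and 5 rose and 1 fell after AMI, with a sum of 3336 to 6214, 16798 to 20418 and 12358 to 17616 in that order. All 8 macrophage markers were higher in *Bmi1*-CPC than in the reference and rose after AMI, with a sum of 138 to 260.1, 2.48 to 4.32 and 722 to 1305. Of the 8 pericyte and smooth muscle markers, 7 were higher and 1 lower in *Bmi1*-CPC, and 2 rose and 3 fell after AMI. Of the 13 cycling-cell markers, 8 were higher in *Bmi1*-CPC and 11 rose after AMI, and of the 9 cardiomyocyte markers 9 were higher in *Bmi1*-CPC and 9 fell after AMI. No marker of these lists was at 0 reads in all *Bmi1*-CPC libraries of either condition. The part of these cells in the results below was not tested, and in bulk libraries fewer cells of a type and less RNA per cell cannot be told apart.

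Levels of the members relative to each other were compared per kilobase of the longest coding transcript, since a long transcript collects more reads. In homeostatic *Bmi1*-CPC the mean value per kilobase ran from 3.04 for *Psmd9* to 144.8 for *Psme1*, with a median of 18.98 over the 41 genes. *Psme1*, a subunit of the 11S activator, was the highest member in every group, at 87.5 per kilobase in *Sca-1*-YFP- cells and 86.0 after AMI. The next level in *Bmi1*-CPC was that of its partner *Psme2*, at 38.6 per kilobase. The assembly chaperones *Psmd9*, *Psmg2*, *Psmd5* and *Psmg1* and the inhibitor *Psmf1* were the lowest members there, at 3.04 to 5.02 per kilobase. Alpha ring genes, whose products are built into the barrel in equal number, spanned 10.3 to 36.5 per kilobase in *Bmi1*-CPC and 14.0 to 45.3 after AMI, and the 6 base ATPases spanned 14.7 to 27.9 and 12.4 to 23.0. These levels depend on the transcript taken as the length and have no test. Those of *Psme2* and *Psma3* also depend on how reads were divided between each gene and a near-identical copy, described below. In homeostatic *Bmi1*-CPC the mean value was 37.1 for *Psme2* and 31.2 for its copy, and 29.2 for *Psma3* and 26.4 for its copy.

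**Figure D1:**
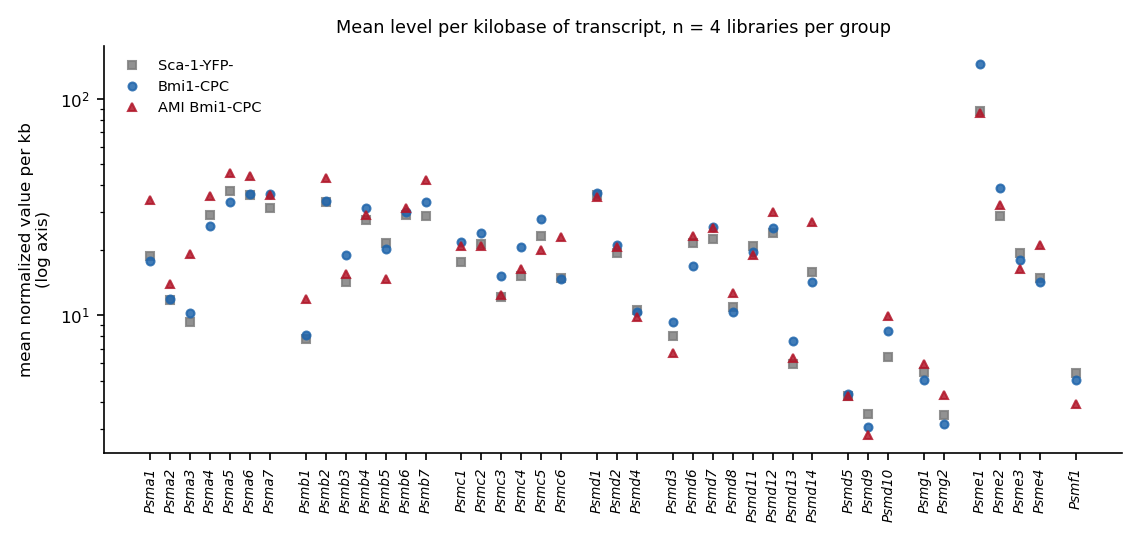
Mean normalized value per kilobase of transcript on a log axis for the 41 proteasome genes, grouped by position in the complex, with squares for Sca-1-YFP- cells, circles for homeostatic Bmi1-CPC and triangles for AMI Bmi1-CPC (n = 4 libraries each). Psme1 stands at 144.8 in homeostatic Bmi1-CPC and at 87.5 and 86.0 in the other groups, and Psmd5, Psmd9, Psmg1, Psmg2 and Psmf1 are the lowest 5 genes in every group.

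The homeostatic comparison asked how the profile of *Bmi1*-CPC differs from that of the *Sca-1*-YFP- reference cells. Few genes of the core or the cap were called: among the 41 members the median log2 fold change was 0.04, against 0.004 over all tested genes, and 3 members were called higher and 0 lower. A gene was called when its Benjamini-Hochberg adjusted p from limma, over all 12450 tested genes, was under 0.05, and 16.8% of all tested genes were called higher and 17.6% lower, so that 3 and 0 of 41 lay under both shares (34.4% of genes were called in either direction). By limma 7 of the 41 members had an unadjusted p under 0.05, against 5267 of all 12450 tested genes. Of these members only *Psmd6* was lower, and edgeR with TMM scaling and DESeq2 also called 0 lower. The geometric mean of the 41 values (with 1 added to each) was 28.5 to 30.6 in *Bmi1*-CPC libraries and 26.2 to 29.1 in the *Sca-1*-YFP- group, so the groups overlapped. The 3 called genes were both subunits of the 11S activator, *Psme1* and *Psme2*, and the base ATPase *Psmc4*.

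*Psme1* and *Psme2* encode the alpha and beta subunits of the 11S activator, which interferon gamma is known to induce. *Psme1* had values of 170.3, 187, 137 and 150.3 in *Bmi1*-CPC against 87.9, 122, 99.3 and 79.3 in the *Sca-1*-YFP- group. Every *Bmi1*-CPC library was above every *Sca-1*-YFP- library, and the log2 fold change was 0.73 ± 0.15 (SE, limma adjusted p = 0.00174), or 65.9% higher. The call held under every alternative, with adjusted p between 5.6e-05 and 0.0205. *Psme2* had values of 31.8, 40.4, 39.4 and 36.9 in *Bmi1*-CPC against 25.4, 32.7, 26.6 and 26.1 in the *Sca-1*-YFP- group. The groups overlapped through *Sca-1*-YFP- replicate 2, which stood above *Bmi1*-CPC replicate 1, and the log2 fold change was 0.41 ± 0.13 (limma adjusted p = 0.0280). Leaving out any 1 library other than *Bmi1*-CPC replicate 1 or *Sca-1*-YFP- replicate 2 ended this call, with adjusted p of 0.0620 to 0.0810. It also ended with a correction for transcript length and GC content (0.38, limma adjusted p = 0.0546) or for length alone (limma adjusted p = 0.0576), whereas the former correction with same-numbered libraries as blocks kept it (limma adjusted p = 0.0271).

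Reads of *Psme2* could not be separated fully from those of a near-identical copy, *Psme2b-ps*, which is 99.4% identical over 794 bases and has its own row in the tables. The copy had 24.5 to 36.6 in *Bmi1*-CPC, 7.43 to 13.3 in the *Sca-1*-YFP- group and 17.7 to 28.4 after AMI. Its homeostatic log2 fold change was 1.48 ± 0.20 (limma adjusted p = 9.1e-05), larger than that of *Psme2*. The sum of *Psme2* and the copy was 68.3 ± 5.82 (SD, n = 4) in *Bmi1*-CPC against 38.4 ± 5.71 in the *Sca-1*-YFP- group, with no overlap, a ratio of 1.78 and a two-sided exact permutation p of 0.0286, the smallest possible when libraries are exchanged freely. With same-numbered libraries as pairs the sum was higher in 4 of 4 pairs and the two-sided exact p was 0.125, the smallest that 4 pairs allow and not past the threshold. After AMI the sum was 55.4 ± 6.48, a ratio of 0.811 to homeostatic *Bmi1*-CPC, with the same exact permutation p. Of 4 such sums, chosen after the values had been seen, 3 had this p with free exchange (Benjamini-Hochberg adjusted exact p = 0.0381), and the homeostatic sum of *Psma3* and its copy had an exact p of 0.743, or 0.75 with pairs.

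The 3 interferon-inducible immunoproteasome subunits, which can replace the catalytic beta subunits, were all higher in *Bmi1*-CPC. *Psmb9* had 43.6, 46.8, 38.1 and 33.5 in *Bmi1*-CPC against 13.5, 19.9, 14.1 and 12.003 in the *Sca-1*-YFP- group (log2 fold change 1.40 ± 0.17, limma adjusted p = 5.0e-05). *Psmb8* had 34.5, 33.4, 33.5 and 32.8 against 13.5, 20.2, 11.03 and 10.3 (1.27 ± 0.18, limma adjusted p = 0.000180). *Psmb10* had 23.5, 29.3, 18.6 and 19.8 against 13.3, 15.0, 13.6 and 15.0 (0.62 ± 0.16, limma adjusted p = 0.00880). None of these groups overlapped. The constitutive subunits that they replace did not pass the test: *Psmb5*, the chymotrypsin-like site, was 18.1 ± 3.32 (SD, n = 4) against 19.5 ± 1.95, *Psmb6*, the caspase-like site, 23.9 ± 2.02 against 23.2 ± 3.92, and *Psmb7*, the trypsin-like site, 38.9 ± 5.04 against 33.2 ± 2.08 (limma adjusted p = 0.651, 0.845 and 0.222). Their *Sca-1*-YFP- libraries had 18.7, 22.4, 18.5 and 18.3 for *Psmb5*, 23.8, 19.5, 28.5 and 21.1 for *Psmb6*, and 33.5, 34.9, 34.3 and 30.2 for *Psmb7*. Their *Bmi1*-CPC libraries are given with the AMI comparison.

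Of the base ATPases, which unfold substrates, 1 of 6 was called. *Psmc4* had 27.4, 36.8, 27.7 and 27.5 in *Bmi1*-CPC against 20.4, 23.1, 20.8 and 23.0 in the *Sca-1*-YFP- group, with no overlap (log2 fold change 0.42 ± 0.14, limma adjusted p = 0.0292). The median log2 fold change of the 6 ATPases was 0.29, and *Psmc1* and *Psmc3* also had groups that did not overlap without passing the threshold (limma adjusted p = 0.0712 and 0.0762). The *Psmc4* value of *Bmi1*-CPC replicate 2 lay above the 3 others. Its call was lost without that library, without *Sca-1*-YFP- replicate 1 or without *Sca-1*-YFP- replicate 3 (limma adjusted p of 0.0746 to 0.0855), and then 1 member was called, as *Psme2* was lost too. Without *Sca-1*-YFP- replicate 2 the count was 5, with *Psmc1* and *Psma7* added. None of the 7 alpha ring genes was called by limma, and 0 of them had an unadjusted p under 0.05. Of the 8 lid genes 0 were called by limma and 2 had groups that did not overlap, as did 33.7% of all tested genes. One of these was *Psmd6*, with 25.0, 21.9, 27.4 and 19.8 in *Bmi1*-CPC against 27.6, 36.9, 28.2 and 27.5 (log2 fold change -0.34 ± 0.15, limma adjusted p = 0.100), lower than all reference libraries.

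The remaining activators, the inhibitor and the 20S chaperones overlapped between the homeostatic groups and were not called, with log2 fold changes of -0.10 to -0.06. In the *Sca-1*-YFP- group *Psme3* had 46.8, 48.9, 54.7 and 56.7, *Psme4* had 98.0, 99.3, 96.5 and 91.7, and *Psmf1* had 22.4, 21.7, 19.2 and 19.2. *Psmg1* had 4.69, 5.01, 5.92 and 7.31 there, and *Psmg2* had 5.21, 3.23, 5.23 and 4.28.

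These homeostatic calls depended on the scaling. The mitochondrial rRNA *mt-Rnr2* accounted for 25.0% to 32.8% of *Bmi1*-CPC reads and 10.4% to 23.7% of reads in the *Sca-1*-YFP- group. When reads were scaled by library totals, the median of all genes moved by -0.26 on the log2 scale, and the part of *mt-Rnr2* in this shift was not tested. Under that scaling edgeR called *Psme1* alone higher (log2 fold change 0.48, adjusted p = 0.0205) and *Psma4*, *Psma5* and *Psmd6* lower, and 28.2% of all calls were higher against 48.8% with the deposited scaling.

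The AMI comparison asked how *Bmi1*-CPC change after infarction, and it uses the same 4 homeostatic *Bmi1*-CPC libraries as the first comparison. Members moved in both directions: 10 of 41 were called higher and 5 lower, and their median log2 fold change was -0.02, equal to -0.02 over all tested genes. Of the 12486 tested genes 21.4% were called higher and 22.0% lower (43.4% in either direction), so that 10 of 41 (24.4%) lay near the background and 5 of 41 (12.2%) below it. Those that rose included 4 of the 7 alpha ring genes, the beta subunits *Psmb1* and *Psmb7*, the ATPase *Psmc6*, the lid genes *Psmd14* and *Psmd6* and the activator *Psme4*. Those that fell were the activator *Psme1*, the ATPase *Psmc5*, the lid gene *Psmd3*, the catalytic subunit *Psmb5* and the inhibitor *Psmf1*. When reads were scaled by library totals, edgeR called 11 members higher, and of the 5 lower genes only *Psme1* passed. Under that scaling 60.8% of all calls were higher, against 49.3% with the deposited scaling, and the median of all genes moved by 0.097 on the log2 scale. The largest changes were those of *Psma1*, *Psma3* and *Psmd14*, with *Psma1* 90.4% and *Psmd14* 86.7% higher.

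**Figure D2:**
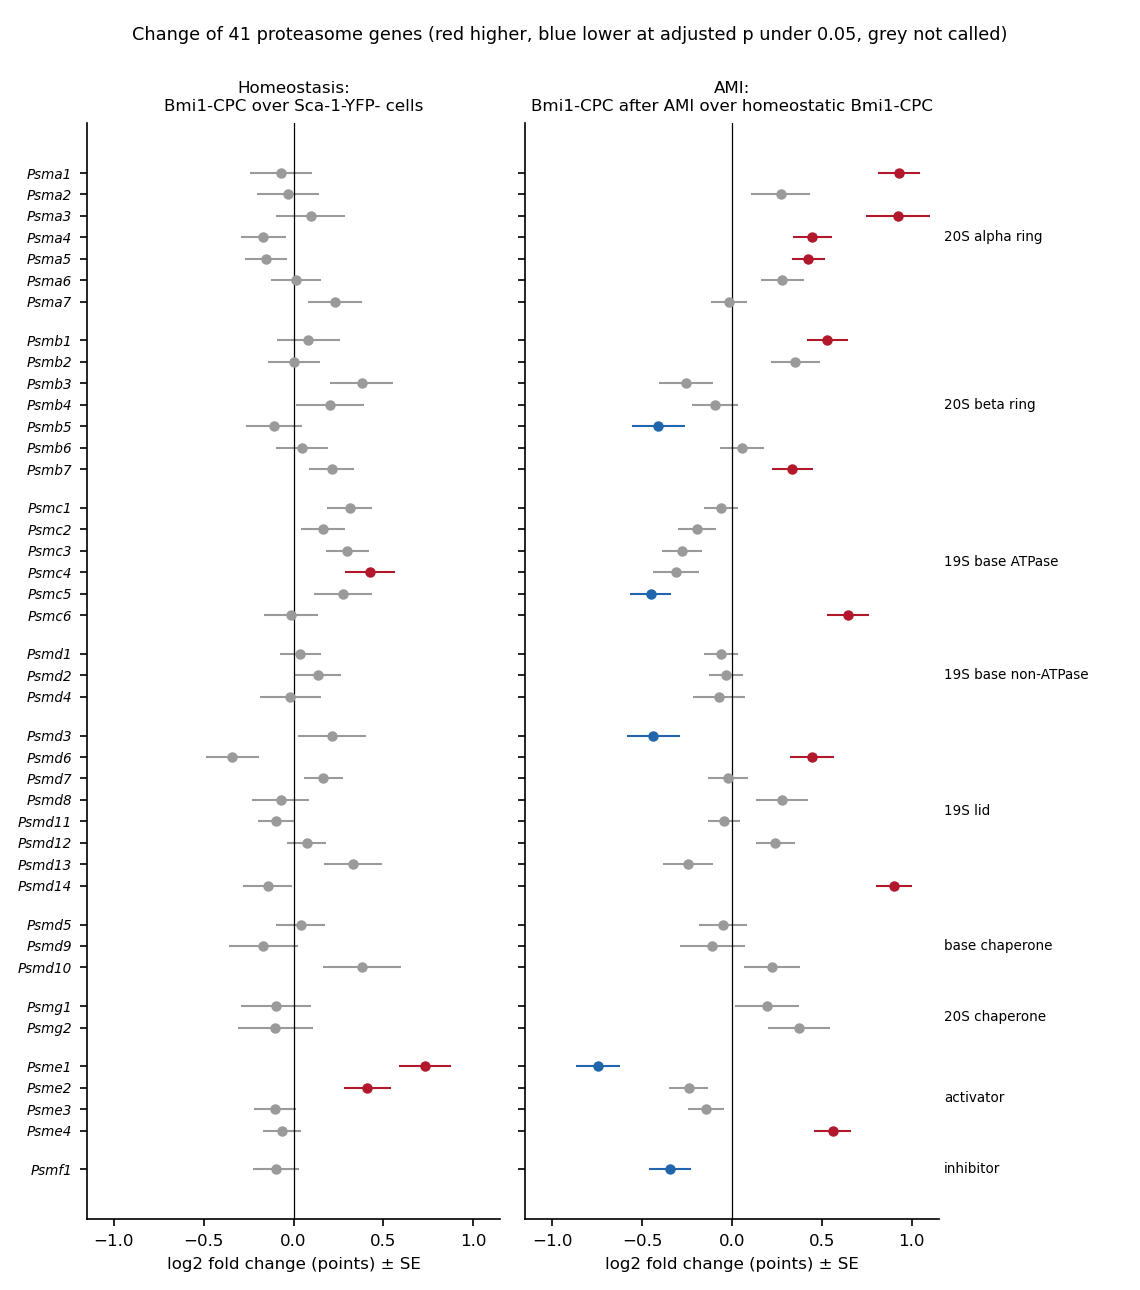
Log2 fold change of each of the 41 proteasome genes with its SE, in homeostasis on the left (Bmi1-CPC over Sca-1-YFP- cells) and after AMI on the right (over homeostatic Bmi1-CPC), with genes ordered by position in the complex and red or blue points for genes called higher or lower. In homeostasis 3 points are red and 0 blue, and after AMI 10 are red, among them 4 of the 7 alpha ring genes, and 5 are blue.

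With the deposited values the alpha ring had the highest median change of the 9 classes. Its median log2 fold change after AMI was 0.42, and the geometric mean of its 7 values (with 1 added) was 45.1 to 47.6 after AMI against 29.7 to 37.7 in homeostatic *Bmi1*-CPC, and 31.1 to 38.4 in the *Sca-1*-YFP- group. *Psma1* had 42.6, 41.2, 39.8 and 41.1 after AMI against 22.6, 17.8, 25.0 and 19.8 (log2 fold change 0.93 ± 0.12, limma adjusted p = 9.9e-05). *Psma3* had 53.7, 57.1, 54.2 and 53.6 against 33.0, 18.4, 27.4 and 38.1 (0.93 ± 0.18, limma adjusted p = 0.00145). In both genes all AMI libraries stood above all homeostatic ones, and the AMI libraries lay closer together than the homeostatic ones. *Psma4* and *Psma5* rose by 0.45 ± 0.11 and 0.42 ± 0.09 (limma adjusted p = 0.00621 and 0.00319), and *Psma2*, *Psma6* and *Psma7* did not pass (0.27, 0.28 and -0.02). After the length and GC correction described below, the changes from *Psma1* to *Psma7* were 0.50, -0.15, 0.53, 0.05, 0.21, -0.07 and -0.12. The middle value was then 0.05 (*Psma4*), under that of the beta ring (0.10, *Psmb7*), so the class ranking was not kept. *Psma3* shares 665 bases at 100% identity with *Gm13835*, which has a row of its own with 26.2 to 37.2 after AMI and 18.5 to 32.3 before. The sum of both rows was 86.1 ± 4.83 (SD, n = 4) after AMI against 55.6 ± 7.39, a ratio of 1.55 with no overlap (two-sided exact permutation p = 0.0286, the smallest possible).

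**Figure D3:**
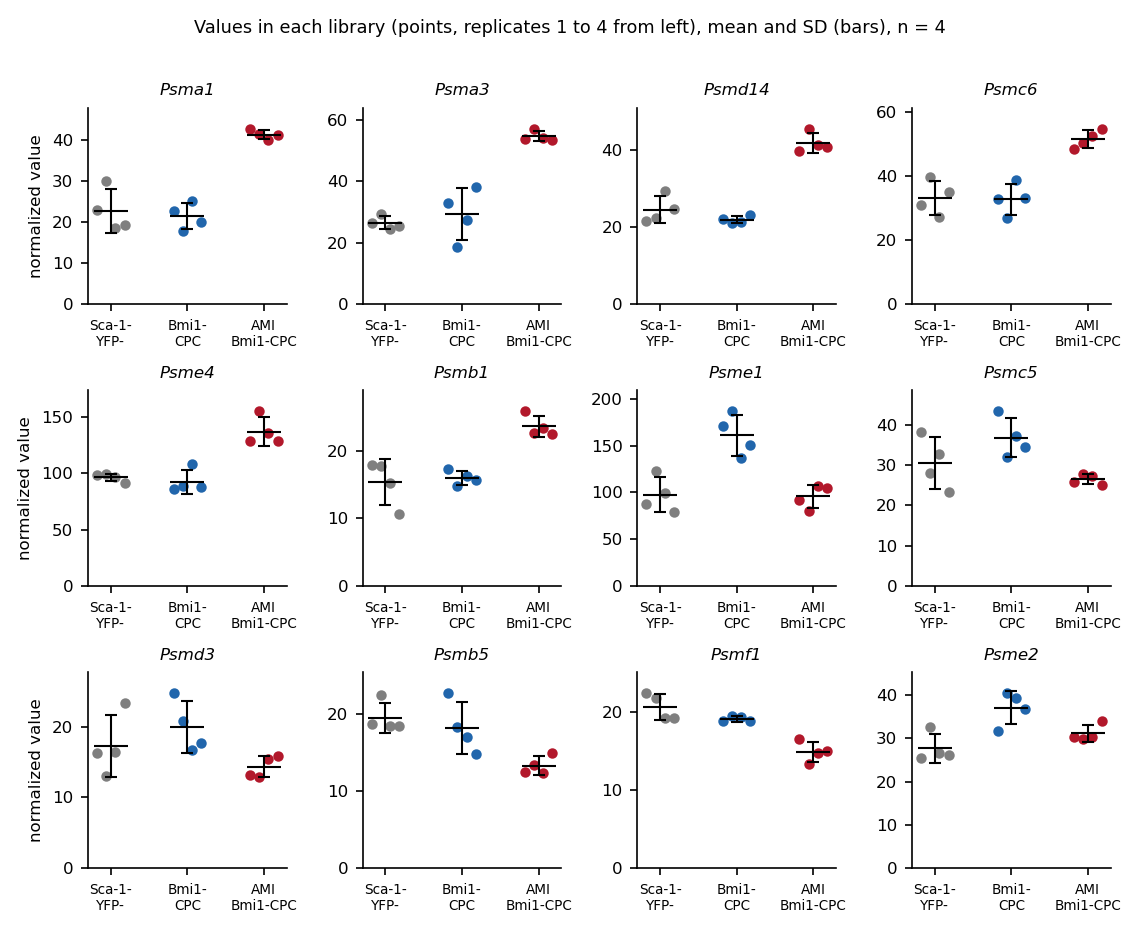
Normalized value in each library, replicates 1 to 4 from left to right, for 12 proteasome genes in Sca-1-YFP- cells (grey), homeostatic Bmi1-CPC (blue) and AMI Bmi1-CPC (red), with black bars for the mean and the SD (n = 4) and axes from 0. The AMI libraries of Psma1 lie at 39.8 to 42.6 above all others, and the homeostatic Bmi1-CPC libraries of Psme1 lie at 137 to 187 above all others.

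The beta ring was divided. *Psmb1*, a structural beta subunit, had 25.8, 22.6, 23.4 and 22.5 after AMI against 17.3, 14.8, 16.2 and 15.7 (log2 fold change 0.53 ± 0.11, limma adjusted p = 0.00294), with no overlap. *Psmb5* had 12.4, 13.4, 12.4 and 15.0 against 22.6, 18.2, 16.9 and 14.8 (-0.41 ± 0.15, limma adjusted p = 0.0414). *Psmb7* had 54.2, 45.0, 48.1 and 49.3 against 39.5, 45.7, 35.0 and 35.2 (0.34 ± 0.11, limma adjusted p = 0.0296). Each of these catalytic genes overlapped through 1 homeostatic library, replicate 4 for *Psmb5* and replicate 2 for *Psmb7*, and the calls were lost on leaving out 6 and 5 of the 8 libraries in turn, with limma adjusted p up to 0.104 for *Psmb5* (without AMI replicate 1, 2 or 3 or homeostatic replicate 1, 2 or 3) and 0.0927 for *Psmb7* (without AMI replicate 1, 3 or 4 or homeostatic replicate 3 or 4). *Psmb6* had 23.3, 21.6, 28.4 and 26.2 against 26.2, 24.2, 23.8 and 21.3 (0.05 ± 0.12, limma adjusted p = 0.747). *Psmb7* shares 405 exonic bases with *Nek6* on the other strand, the libraries keep no strand, and *Nek6* also rose after AMI (0.83 ± 0.20, limma adjusted p = 0.00548).

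In the 19S base the ATPases *Psmc6* and *Psmc5* moved in opposite directions. *Psmc6* had 48.3, 50.3, 52.6 and 54.7 after AMI against 32.7, 26.8, 38.6 and 33.0 (log2 fold change 0.65 ± 0.12, limma adjusted p = 0.000992). *Psmc5* had 25.8, 27.7, 27.3 and 25.0 against 43.3, 32.1, 37.2 and 34.5 (-0.45 ± 0.11, limma adjusted p = 0.00739). Neither overlapped, and both were past the threshold in opposite directions although their products stand in the same hexameric ring. Each call ended under another setting: that of *Psmc5* with library totals (-0.36, edgeR adjusted p = 0.0921), and that of *Psmc6* with the length and GC correction (0.13, limma adjusted p = 0.391). The other 4 ATPases were not called, at -0.31 to -0.06. The base scaffold genes *Psmd1* and *Psmd2* and the ubiquitin receptor gene *Psmd4* were not called, with log2 fold changes of -0.06, -0.03 and -0.07.

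In the lid, *Psmd14*, which encodes the deubiquitinase that removes ubiquitin chains, had the smallest adjusted p of all members. Its values were 39.7, 45.4, 41.2 and 40.7 after AMI and 22.0, 21.0, 21.3 and 23.2 in homeostatic *Bmi1*-CPC (log2 fold change 0.90 ± 0.10, limma adjusted p = 4.0e-05). *Sca-1*-YFP- cells had 21.5, 22.2, 29.4 and 24.7. The AMI libraries stood above all 8 homeostatic libraries. *Psmd6* also rose (0.45 ± 0.12, limma adjusted p = 0.0111), and *Psmd3* fell, with 13.2, 13.0, 15.5 and 15.8 after AMI against 24.7, 20.8, 16.7 and 17.7 (-0.44 ± 0.15, limma adjusted p = 0.0312). The *Psmd3* call was lost without AMI replicate 1 or 2 or homeostatic replicate 1 or 2, with adjusted p of 0.0647 to 0.0853. The other 5 lid genes, *Psmd7*, *Psmd8*, *Psmd11*, *Psmd12* and *Psmd13*, were not called, at -0.24 to 0.28.

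The activators also separated. *Psme1* fell to 91.6, 79.9, 106 and 105 after AMI, below all homeostatic *Bmi1*-CPC libraries given above (log2 fold change -0.75 ± 0.12, limma adjusted p = 0.000505). These levels lay within the range of the *Sca-1*-YFP- libraries, and no test between those groups was made. *Psme2* had 30.2, 29.9, 30.4 and 34.1 after AMI and was not called (-0.24 ± 0.11, limma adjusted p = 0.0929). *Psme4*, which encodes the activator PA200, rose to 129, 155, 136 and 128 from 85.7, 88.6, 108 and 87.8 (0.56 ± 0.10, limma adjusted p = 0.00106), with no overlap. *Psme3*, the nuclear PA28 gamma, had 43.2, 47.5, 41.9 and 41.4 against 45.4, 46.8, 45.7 and 54.9 (-0.14 ± 0.10, limma adjusted p = 0.273). *Psmf1*, which encodes the inhibitor PI31, fell to 16.5, 13.4, 14.7 and 15.0 from 18.8, 19.5, 19.4 and 18.9 (-0.35 ± 0.12, limma adjusted p = 0.0324), and all AMI libraries were lower. The *Psmf1* call was lost without replicate 2, 3 or 4 of either group, with adjusted p of 0.0557 to 0.0952, and also by DESeq2 (-0.35, adjusted p = 0.0693) and by edgeR with library totals (-0.27, adjusted p = 0.234). Endothelial and cardiomyocyte markers fell and fibroblast, macrophage and leukocyte markers rose in the same comparison, as given above, and their part in the fall of *Psme1* was not tested.

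The chaperones that build the complex were not called in either comparison. *Psmg1* had 4.90, 8.05, 6.02 and 5.89 after AMI against 5.77, 5.01, 5.48 and 4.69, and *Psmg2*, its partner in alpha ring assembly, had 5.05, 4.97, 6.28 and 6.03 against 4.29, 3.31, 4.51 and 4.20. *Psmg2* did not overlap, as did 40.6% of all tested genes, and had a log2 fold change of 0.38 ± 0.17 (limma adjusted p = 0.0987). The base chaperones *Psmd5*, *Psmd9* and *Psmd10* had -0.05, -0.11 and 0.22.

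The change after AMI went with the base composition of the transcript. The 10 genes called higher had a GC content of 37.0% to 49.2% (median 44.5%), and the 5 called lower had 48.8% to 58.3% (median 54.9%). Across the 41 genes Spearman's rho between log2 fold change and GC content was -0.73, and across 12089 tested genes it was -0.45. This is a description across genes, which share libraries and are not independent replicates. Among the 14 members of lowest GC content 7 rose and 0 fell by limma, where 33.8% of all genes in the same GC range rose and 7.43% fell. Among the 14 of highest GC content 0 rose by limma and 4 fell, where 11.8% of all genes in that range rose and 36.5% fell. In homeostasis rho was 0.35 over the members and -0.04 over all genes.

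After a correction for transcript length and GC content, fitted over all genes in each library, 5 of the 10 genes remained higher: *Psma1* (0.50), *Psma3* (0.53), *Psmd14* (0.48), *Psme4* (0.33) and *Psmb1* (0.39). *Psma4*, *Psma5*, *Psmb7*, *Psmc6* and *Psmd6* no longer passed, at 0.05 to 0.21. *Psme1* (-0.65), *Psmc5* (-0.52) and *Psmf1* (-0.41) remained lower, *Psmb5* and *Psmd3* did not, and *Psmc2* was added (-0.37). The rho of the members was -0.30 after this correction and that of all genes -0.01. Its part in the result was not tested. Over all alternatives, *Psma1*, *Psma3*, *Psmd14* and *Psmb1* stayed higher and *Psme1* stayed lower.

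**Figure D4:**
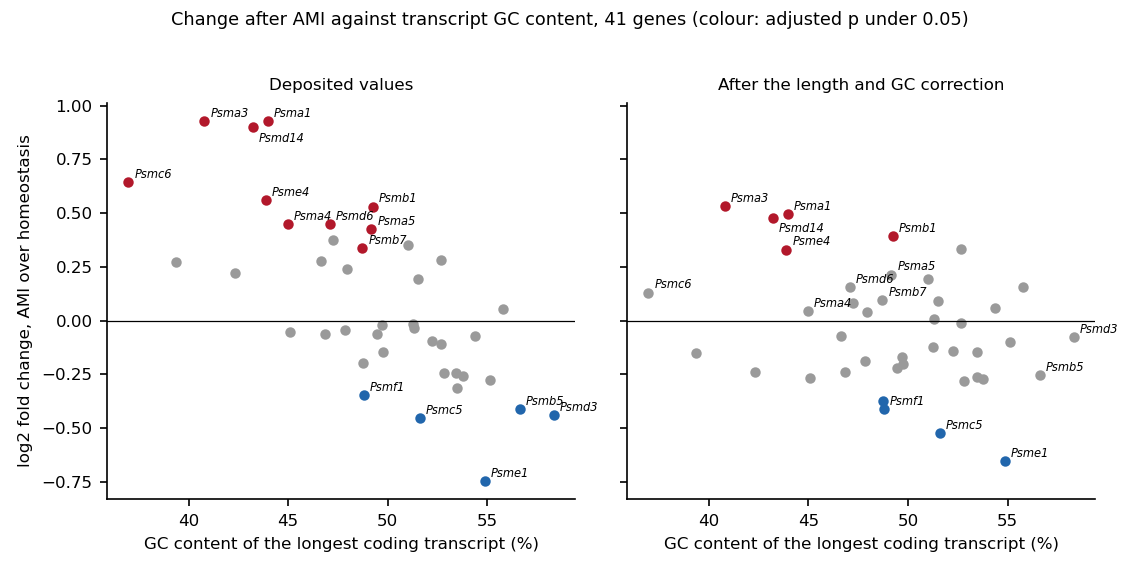
Log2 fold change after AMI against the GC content (percent) of the longest coding transcript for the 41 proteasome genes, with the deposited values on the left and after the length and GC correction on the right, red and blue for genes called higher and lower, and names for genes called with the deposited values. On the left the 10 red points lie at 37.0% to 49.2% GC and the 5 blue points at 48.8% to 58.3%, and on the right 5 of those red points are still red, 3 of the blue points are still blue and Psmc2 is newly blue.

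The ubiquitin-proteasome companions moved in both directions. Of 37 such genes tested in each comparison, 6 (16.2%) were higher and 4 (10.8%) lower in homeostasis, against 16.8% and 17.6% of all tested genes. After AMI 10 (27.0%) rose and 8 (21.6%) fell, against 21.4% and 22.0%, so that nothing particular to the companions is read from these counts. Under the length and GC correction 4 companions were called higher after AMI instead of 10. The AMI changes of single companions, here and below, are given without that correction. The immunoproteasome subunits fell together after AMI: *Psmb9* to 15.3, 14.2, 16.1 and 17.2 (log2 fold change -1.30 ± 0.13, limma adjusted p = 1.9e-05), *Psmb10* to 10.8, 10.7, 13.1 and 12.8 (-0.87 ± 0.16, limma adjusted p = 0.000969) and *Psmb8* to 24.8, 15.6, 18.7 and 21.2 (-0.73 ± 0.14, limma adjusted p = 0.00119). The 3 genes and *Psme1* were thus highest in homeostatic *Bmi1*-CPC, whose libraries are shared by both comparisons, so that the opposite directions are not independent. In the AMI comparison leukocyte, macrophage and most fibroblast markers rose, and cardiomyocyte and most endothelial markers fell, as given above. The part of these cells in the pattern of the 3 genes and *Psme1* was not tested.

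*Shfm1*, which encodes the small lid subunit SEM1, rose to 11.1, 13.4, 14.4 and 15.0 from 8.14, 5.22, 5.24 and 4.93 (log2 fold change 1.09 ± 0.18, limma adjusted p = 0.000535). *Uba6*, an enzyme that activates ubiquitin, rose to 44.2, 43.3, 43.0 and 42.5 from 20.6, 26.3, 24.2 and 28.5 (0.78 ± 0.11, limma adjusted p = 0.000234), and was lower in homeostatic *Bmi1*-CPC than in the reference cells (-0.53 ± 0.14, limma adjusted p = 0.00948). The factor gene *Nfe2l1* fell to 142, 148, 163 and 163 from 209, 297, 291 and 239 (-0.73 ± 0.12, limma adjusted p = 0.000464), while *Nfe2l2* was not called in either comparison (-0.25 and 0.12), with 212, 213, 212 and 212 after AMI, 216, 213, 169.96 and 185 in homeostatic *Bmi1*-CPC and 246, 231, 222 and 229 in the reference. The reference had 36.3, 33.1, 42.2 and 33.8 for *Uba6* and 221, 217, 219.9 and 192 for *Nfe2l1*. All AMI libraries of *Nfe2l1* were lower and all of *Shfm1* and *Uba6* higher.

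The heat-shock gene *Hspb1* was higher in homeostatic *Bmi1*-CPC (0.70 ± 0.15, limma adjusted p = 0.00248) and fell after AMI (-1.30 ± 0.15, limma adjusted p = 6.4e-05). It had 51.2, 59.4, 48.7 and 60.01 in the reference, 104, 107, 69.6 and 82.3 in homeostatic *Bmi1*-CPC and 33.8, 30.9, 34.6 and 45.2 after AMI, with no overlap in either comparison. The co-chaperone gene *Bag3* was lower in homeostatic *Bmi1*-CPC, with 46.6, 96.3, 49.1 and 60.2 against 82.6, 112, 84.0 and 107 (-0.65 ± 0.20, limma adjusted p = 0.0250). The 20S maturation factor gene *Pomp* and the ubiquitin receptor gene *Adrm1* were not called after AMI (0.03 and -0.36) or in homeostasis (0.12 and 0.10). *Pomp* ranged from 29.8 to 55.2 and *Adrm1* from 10.99 to 19.4 over all 12 libraries.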

How the data were processed

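Deposited tables of the 2 comparisons gave the authors' normalized values, a signal for 12528 genes that equals whole reads plus 0.5 times 1 factor per library (100% of values within 1e-06 of a whole read). The same tables hold the authors' fold change score, log2 fold change and adjusted p-value, none of which was used. According to the submitters' processing notes, cutadapt, RSEM and edgeR were applied (versions are not given in the sources used here), with build NCBIM37. Reads were 75 bases long, and 0 sample columns were left out.

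Genes were tested if 4 or more of 8 libraries exceeded a value of 1, on log2(value + 1), a scale that understates changes of low genes, with limma 3.58.1 (R 4.3.3), with a variance trend, two-sided, Benjamini-Hochberg over all genes. All 41 members passed this filter in both comparisons. Alternatives were other pseudocounts and filters, edgeR 4.0.16 and DESeq2 1.42.0 on the recovered reads, upper-quartile scaling, a replicate block, length and GC correction, all 12 libraries in 1 fit and leaving out each library. GC or length correction alone was added after the data had been seen. Length and GC content came from the longest coding transcript in GENCODE M21 (GRCm38), found for 96.8% of genes.

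Same-numbered homeostatic libraries deviated together (r = 0.26, 0.25, 0.16 and 0.30), and same-numbered libraries of the AMI comparison did not (0.075, -0.010, -0.009 and 0.002). The main fits of both comparisons nevertheless used no pairs. Numbers entered only through the replicate block alternatives and, in homeostasis, the paired exact test of the sums. The paper calls the heat map samples of both comparisons matched but does not say which libraries belong together. Near copies were sought with blastn 2.17.0 (at least 95% identity over 75 bases): 11 members had a copy on the same strand, and 9 overlapped exons of a gene on the other strand, which these unstranded libraries cannot separate. Called members with a copy were *Psma3*, *Psma4*, *Psma5*, *Psmb5* and *Psme2*. The copies of *Psma4* (*Gm6542*, 96.8% identity), *Psma5* (*Gm8394*, 98.6%) and *Psmb5* (*Gm3375*, 98.9%) have no values here, so shared reads could not be examined. Called members with an overlap on the other strand were *Psma4*, *Psma5*, *Psmb7*, *Psmd3* and *Psme1*. Members and lists were chosen with earlier results of these data known. Values in every library are given for up to 6 members per direction and comparison with the largest changes among those called and without overlap, the catalytic subunits, activators, inhibitor, *Psmd14*, the 20S chaperones, *Psmb8*, *Psmb9*, *Psmb10*, *Nfe2l1*, *Nfe2l2* and the 3 other companions of smallest adjusted p per comparison, and by range for *Pomp* and *Adrm1*.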

Additional observations from a re-analysis of the deposited data

Results flagged for a closer look

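In 10 of the 123 groups of 4 values (41 genes in 3 groups) the highest or lowest library stood apart from the others by Dixon's ratio, and chance gives about 1 in 20. Of these, 4 lay in *Sca-1*-YFP- replicate 2, which was highest for *Psma7* (48.3, others 31.3 to 32.9), *Psmb5* (22.4, others 18.3 to 18.7), *Psmd6* (36.9, others 27.5 to 28.2) and *Psme2* (32.7, others 25.4 to 26.6). Homeostatic *Bmi1*-CPC replicate 2 was lowest for *Psma6* (29.7, others 40.7 to 41.1) and highest for *Psmc4* (36.8, others 27.4 to 27.7). Homeostatic *Bmi1*-CPC replicate 4 was highest for *Psme3* (54.9, others 45.4 to 46.8), and replicate 3 was highest for *Psme4* (108, others 85.7 to 88.6). After AMI, replicate 1 was lowest for *Psmd11* (51.3, others 55.1 to 55.5) and replicate 4 was highest for *Psme2* (34.1, others 29.9 to 30.4).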

How the results depend on the processing

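In homeostasis, scaling by library totals gave 1 proteasome gene higher and 3 lower, 7 companions lower and a median log2 fold change of the members of -0.22. The fit of all 12 libraries gave 5 higher and 1 lower, the replicate block with length and GC correction gave 1 lower, and the fit without variance trend gave 2 companions lower. Leaving out 1 library gave 1 to 5 proteasome genes higher and 1 to 4 companions lower. After AMI, library totals gave 1 proteasome gene lower and a median of 0.084. The replicate block gave 2 lower (from 5), with the numbers not paired in that comparison. Length and GC correction gave 5 higher, 4 companions higher and a median of -0.077, and with the replicate block 5 higher, 3 companions higher and a median of -0.077. GC correction alone gave 3 companions higher, and with the replicate block 6 proteasome genes higher, 3 lower and 3 companions higher. Leaving out 1 library gave 9 to 12 higher and 2 to 5 lower. The replicate block changed no limma call of a member in homeostasis, and the pairing took the exact p of the homeostatic sum of *Psme2* and its copy to 0.125, a test added after the data had been seen. The cause of these differences was not tested.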
